A study of Mus musculus with 2 samples.

Results

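The neutrophil granule and antimicrobial genes were followed through 2 single-cell libraries of mouse gingiva. They are Mpo, Elane, Ngp, Ltf, Camp, Lcn2, Chil1, Lyz2, Slpi and Wfdc21. The genes were chosen by symbol, 10 of the 32285 genes in the feature tables, and all 10 were found. Each was measured in neutrophils, taken as cells in which S100a8 plus S100a9, the most abundant transcripts of the lineage, made up at least 3% of the unique molecular identifiers (UMIs, 1 per captured transcript). This gate held 5019 of 10948 cells of the normoglycemic library and 4667 of 10260 cells of the diabetic library. The genes were then followed across neutrophils with different levels of Retnlg and Spp1, and in other cell classes set by marker genes.

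Both groups of mice had the genotype CD11CCre-/-;FoxoLL on a mixed C57B6 - FVB background, so they carried loxP sites around exon 2 of Foxo1 but no Cre, and served as wild type. Diabetes was induced with streptozotocin, which destroys the insulin-producing beta cells, and the labels name no treatment for the normoglycemic group beyond what both shared. Bacteria-induced inflammation lasted 2 weeks with a waiting period of 2 weeks, and cells of 4 mice were pooled into 1 library per group without replicates. Living cells bearing CD45 and lacking CD31 and Ter-119 were sorted, with an enrichment of CD11c-bearing cells by 20%, and 10000 cells were loaded per lane. Differences between the groups therefore cannot be told apart from differences between single pools, and every interval given is a 95% interval that covers counting error only. The age of the mice is not given in the sources used here.

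Neutrophils fill their granules while they mature in the bone marrow. Azurophil granules form first, at the promyelocyte stage, and carry myeloperoxidase and serine proteases; specific granules follow at the myelocyte stage and carry lactoferrin, cathelicidin and neutrophilic granule protein. Transcription of most of these genes stops before the cell enters blood, so that mature neutrophils hold the proteins but little of the mRNA. Lipocalin 2, lysozyme and the inhibitor SLPI are different in that macrophages or epithelia also make them, and that inflammation can induce them.

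The specific granule genes Ngp, Ltf and Camp lie close together on chromosome 9, within 1.2 megabases of GRCm38 in the GENCODE M21 annotation. Camp spans chr9:109847379-109849617 on the minus strand, Ngp spans chr9:110419747-110423012 and Ltf chr9:111019271-111042767 on the plus strand. The azurophil genes Elane (chr10:79886247-79888215) and Mpo (chr11:87793581-87804413) lie on the plus strand of other chromosomes. Lyz2 is at chr10:117277331-117282321 (minus), Lcn2 at chr2:32384633-32388252 (minus), Slpi at chr2:164354070-164389095 (minus), Chil1 at chr1:134182176-134190181 (plus) and Wfdc21 at chr11:83746940-83752642 (plus).

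The sequence before the start of the 5 genes that were carried by the fewest cells follows here, because the summed differences of those genes rested on so few cells. RefSeq promoter entries of GRCm38.p6 were matched for 9 of the 10 genes. Each stretch ends just before the GENCODE start and runs 5′ to 3′ on the gene's own strand. Capitals mark matches to TTGCNNAA, a form of the site bound by C/EBP factors, or to GAGGAAGT, a form of the PU.1 site, read on both strands; the motifs do not overlap here.
Ngp, chr9:110419558-110419746, plus strand: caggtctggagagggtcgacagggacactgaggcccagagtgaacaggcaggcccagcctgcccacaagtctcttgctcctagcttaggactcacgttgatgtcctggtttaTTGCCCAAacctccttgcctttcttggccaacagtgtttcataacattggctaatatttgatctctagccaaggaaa
Ltf, chr9:111019042-111019270, plus strand: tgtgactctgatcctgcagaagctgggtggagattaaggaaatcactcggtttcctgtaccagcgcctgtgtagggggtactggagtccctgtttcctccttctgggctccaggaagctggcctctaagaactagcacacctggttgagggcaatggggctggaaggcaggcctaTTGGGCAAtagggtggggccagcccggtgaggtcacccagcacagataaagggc
Camp, chr9:109849618-109849706, minus strand: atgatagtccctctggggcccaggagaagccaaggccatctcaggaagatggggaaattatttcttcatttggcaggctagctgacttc
Elane, chr10:79886062-79886246, plus strand: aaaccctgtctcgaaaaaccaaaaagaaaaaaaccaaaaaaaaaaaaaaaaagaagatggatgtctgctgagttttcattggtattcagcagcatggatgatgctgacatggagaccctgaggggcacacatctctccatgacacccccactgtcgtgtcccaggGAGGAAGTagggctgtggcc
Mpo, chr11:87793534-87793580, plus strand: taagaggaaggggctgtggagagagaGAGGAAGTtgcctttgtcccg
Over the 250 bases before the RefSeq start, TTGCNNAA had 2 matches in Ngp and 1 each in Ltf, Lcn2 and Slpi, against 9.56% of 32851 promoter windows with at least 1 match. GAGGAAGT had 1 match each in Mpo and Elane and none in the other 7 genes, against 2.44% of windows. A match describes letters in a window and was not linked to binding.

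Across all neutrophils the 10 genes did not move as a block. Mpo, Elane, Ngp, Camp, Ltf and Slpi were at least 1.5-fold higher in the diabetic library, Lcn2 and Chil1 were at least 1.5-fold lower, and Lyz2 and Wfdc21 lay between those limits. That is 6 of 10 higher and 2 of 10 lower, where 11.8% of the 4482 genes tested were higher and 14.1% were lower. The median log2 ratio was 0.79 over the 10 genes and 0.05 over all genes tested. The genes tested had at least 10 UMIs per 1000000 UMIs of the neutrophils (abbreviated CPM) in either library. All 10 genes passed that limit, Mpo and Elane through the diabetic library alone. Scaling by trimmed means shifted log2 ratios by -0.11 and left the counts at 6 and 2, while the share of higher among all called genes went from 45.5% to 32.0%. Slpi was then 1.63-fold higher.

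**Figure D1:**
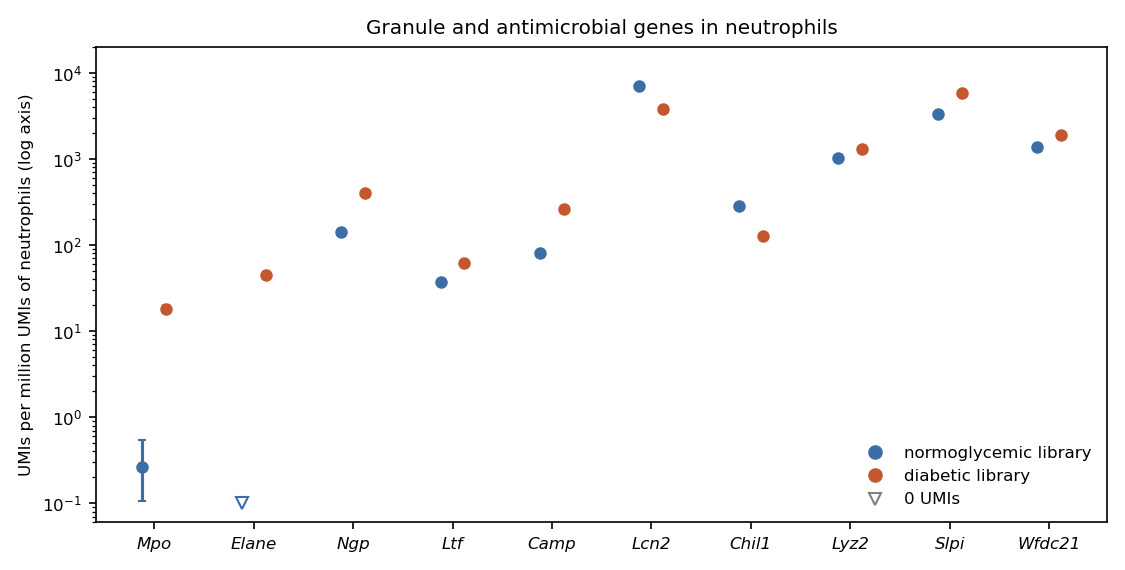
Level of the 10 genes in neutrophils of each library, as UMIs per 1000000 UMIs of neutrophils on a log axis; bars are 95% Poisson intervals (counting error only) and the open triangle marks 0 UMIs. Lcn2 and Chil1 sit higher in the normoglycemic library, the other 8 genes higher in the diabetic library.

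Mpo, the enzyme that makes hypochlorous acid, had 7 UMIs in 6 normoglycemic neutrophils (0.263 CPM) and 348 UMIs in 4 diabetic neutrophils (18.2 CPM), a ratio of 69.2 (33.2 to 173). Elane, neutrophil elastase, had 0 UMIs in the normoglycemic library and 869 in the diabetic library (45.5 CPM), at least 403-fold higher when the normoglycemic neutrophils are set at 3 UMIs in all. A single diabetic cell held 344 of the 348 Mpo UMIs and 858 of the 869 Elane UMIs. That cell had 72764 UMIs and 6493 genes where the median diabetic neutrophil had 3559 UMIs, and S100a8 plus S100a9 made up 3.88% of its UMIs, close to the gate. It also held 835 UMIs of Prtn3 and 512 of Ctsg, the other serine proteases of azurophil granules, 107 of Camp, 123 of Wfdc21 and 21 of Mki67, a proliferation gene, but 3 of Ngp, 0 of Ltf and 1 of Retnlg. The Mpo and Elane differences are thus a count of 1 cell against 0 cells. Leaving out cells with 3 or more markers of another class removes this cell, as does a gate of 10%. Mpo and Elane then fell below the limit of 10 CPM, which left 8 genes tested. The Mpo ratio was 1.37 and 0.978 in these settings, on few UMIs in each library. Whether the cell was a doublet was not tested.

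Ngp, Ltf and Camp were also carried by few cells. Ngp, neutrophilic granule protein, had 3772 UMIs in 285 normoglycemic neutrophils (142 CPM) and 7659 UMIs in 312 diabetic neutrophils (401 CPM), a ratio of 2.83 (2.72 to 2.94). Camp, the precursor of the cathelicidin peptide, had 2145 UMIs in 166 cells (80.7 CPM) and 5059 UMIs in 91 cells (265 CPM), a ratio of 3.28 (3.12 to 3.45). Ltf, lactoferrin, an iron-binding protein, had 985 UMIs in 334 cells (37.05 CPM) and 1192 UMIs in 105 cells (62.4 CPM), a ratio of 1.68 (1.55 to 1.83). For Camp and Ltf fewer cells held the transcript in the diabetic library although the summed level was higher.

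Cells with UMIs of all 3 genes numbered 8 in each library, and these 16 cells held most of the transcripts. In the normoglycemic library they held 62.3% of neutrophil Ngp UMIs, 82.0% of Camp and 39.8% of Ltf; in the diabetic library 84.4%, 94.4% and 87.4%. Equal numbers hide different cells. In the normoglycemic library 2 of the 8 cells had 1460 and 840 Ngp UMIs and the other 6 had at most 18. In the diabetic library 7 of the 8 had between 574 and 1677 Ngp UMIs and the last had 27. No other neutrophil reached 500 Ngp UMIs in either library. After thinning every cell to 1000 UMIs, which left out 47 and 59 shallower cells, 2 of 4972 normoglycemic neutrophils (0.0402%, exact binomial interval 0.00487 to 0.145) and 7 of 4608 diabetic neutrophils (0.152%, 0.0611 to 0.313) still held all 3 genes, and the intervals overlap.

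**Figure D2:**
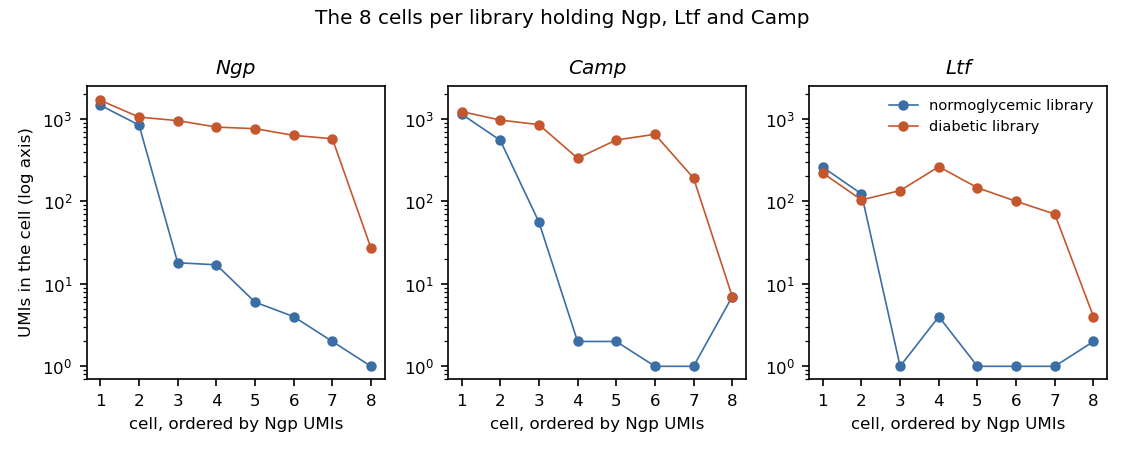
UMIs of Ngp, Camp and Ltf (log axis) in each of the 8 cells per library that held all 3 genes, ordered by Ngp. In the plot 2 normoglycemic and 7 diabetic cells lie above 500 Ngp UMIs; the remaining cells fall to 27 or fewer.

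The 7 diabetic cells were deep and carried a shared set of the other genes. They had 6727 to 23747 UMIs, and S100a8 plus S100a9 made up 8.61% to 39.8% of them. Each of the 7 held 191 to 1224 Camp and 70 to 263 Ltf UMIs, and between 225 and 875 of Lcn2, which binds the iron carriers of bacteria. Slpi ran low in them, at 2 to 47 UMIs, and Elane was at 0 in all but 1 of them, which had 9. The cells with all 3 genes, set against the remaining neutrophils of the normoglycemic library, had 5.11-fold more Lyz2 (4.72 to 5.54), 2.73-fold more Wfdc21 (2.49 to 3.00) and 1.97-fold more Lcn2 (1.88 to 2.07), but 0.626 times the Slpi (0.552 to 0.708). Proliferation transcripts reached 10 UMIs or more in 1 of the 2 high normoglycemic cells (172 UMIs) and in 2 of the 7 diabetic ones.

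Without the 16 cells the diabetic excess was smaller for Ngp, within counting error for Camp and turned for Ltf. Ngp stood at 53.8 CPM in normoglycemic and 63.0 CPM in diabetic neutrophils, a ratio of 1.17 (1.08 to 1.27). Camp stood at 14.6 and 15.01 CPM, a ratio of 1.03 (0.878 to 1.20). Of the 285 diabetic Camp UMIs left, the cell with Mpo and Elane held 107, and the next cells held 70 and 9. The diabetic Camp level outside the 16 cells thus still rested on few cells. Ltf stood at 22.4 and 7.90 CPM, a ratio of 0.353 (0.293 to 0.422), so that it was lower in the diabetic library: 326 normoglycemic but 97 diabetic cells outside the 16 held Ltf. The count over the 10 genes became 3 higher and 3 lower, where 11.7% and 14.2% of 4477 genes were called. The 3 higher were Slpi and also Mpo and Elane. The latter pair rests on the 1 cell described above and passed the limit through the diabetic library alone.

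Xist, transcribed from the inactive X chromosome of females, and Y-linked transcripts gave another division of the same cells. Both pools held male and female cells; cells with Xist and no Y-linked UMI were called female, and those with Y-linked UMIs and no Xist male. Of the 7 diabetic cells with over 500 Ngp UMIs, 6 were called female, 0 male and 1 had no call, and the cell with Mpo and Elane was called female as well. Among diabetic neutrophils of at least 10000 UMIs, 35 were called female and 65 male, and in the whole diabetic gate 238 and 1770. In cells called male alone, 2611 normoglycemic and 1770 diabetic, the 3 genes were lower in the diabetic library: Ngp at 0.602 (0.541 to 0.669), Ltf at 0.297 (0.224 to 0.389) and Camp at 0.147 (0.110 to 0.193) times the normoglycemic level. Of the 2 high normoglycemic cells, 1 was called male and is part of that comparison. That cell alone held 840 of the 1570 Ngp UMIs, 549 of the 790 Camp UMIs and 123 of the 433 Ltf UMIs of normoglycemic cells called male. Without that cell the normoglycemic Ngp level would lie below the diabetic level, so the lower diabetic Ngp level there rests on 1 cell. The lower diabetic levels of Camp and Ltf there rest on it in part. In cells called male, 1 of 8 tested genes was higher, Slpi, and 5 were lower, where 11.8% and 14.8% of 4472 genes were called. Without the 4 normoglycemic and 1 diabetic male-called cells holding all 3 genes, 1 of 8 was higher and 4 were lower. Cells called female, a set added after the data were seen, numbered 67 in the normoglycemic and 238 in the diabetic library and went the other way. Ngp had 1 UMI in the former and 5963 in the latter, a ratio of 2503 (449 to 98880), Camp 4 and 4687 UMIs (492, 192 to 1806) and Ltf 6 and 973 UMIs (68.1, 31.2 to 186). Of 10 tested genes 7 were higher and 1 was lower there, where 12.2% and 44.5% of 7095 genes were called. This set holds 6 of the 8 diabetic cells with all 3 genes and 0 of the normoglycemic ones. The normoglycemic cell richest in Ngp (1460 UMIs, with 1140 of Camp and 259 of Ltf) had 17 Xist UMIs and 1 Y-linked UMI. It therefore had no call and entered neither set, so the ratios in cells called female depend on the call of this 1 cell. Without those 6 diabetic cells the ratio was 45.55 (7.99 to 1817) for Ngp, 12.4 (4.71 to 46.3) for Camp and 0.372 (0.0898 to 1.46) for Ltf. The Camp ratio there again rests on 1 cell: the cell with Mpo and Elane held 107 of the 111 diabetic UMIs left. The numbers of mice that gave these cells, and the part of their sex in the result, were not tested.

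**Figure D3:**
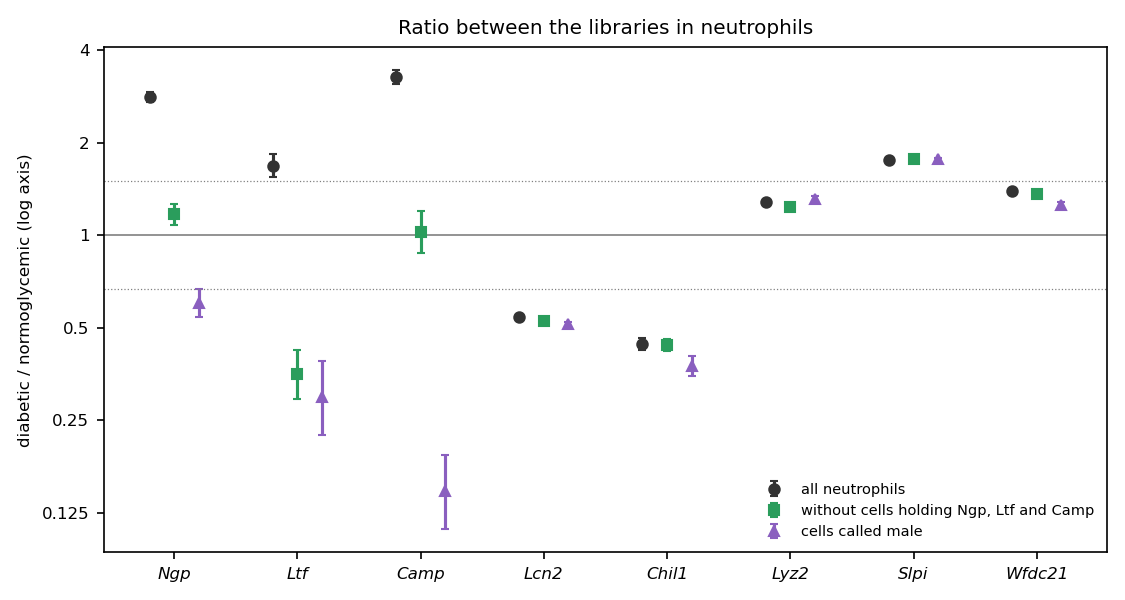
Ratio of diabetic to normoglycemic CPM (log axis) for 8 genes in all neutrophils, without the cells holding Ngp, Ltf and Camp, and in cells called male; bars are exact 95% intervals (counting error only), dotted lines mark 1.5-fold. Ngp, Ltf and Camp change with the set of cells, from 2.83, 1.68 and 3.28 to 0.602, 0.297 and 0.147, while Lcn2, Chil1, Lyz2, Slpi and Wfdc21 keep their direction in these 3 sets. The direction of the 0.602 for Ngp rests on 1 normoglycemic cell.

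The other 5 genes were spread over many neutrophils, and 3 of them, Chil1, Slpi and Wfdc21, kept their direction in all 13 alternatives tried. Lcn2 had the most UMIs of the 10 in normoglycemic neutrophils (the method counts 3′ ends, with no scaling by length), with 6975 CPM, and stood at 3782 CPM in diabetic neutrophils, a ratio of 0.542 (0.538 to 0.547). It was detected in 84.5% and 82.0% of neutrophils, against 20.5% and 9.15% of B cell-like cells, at median depths of 4199 and 3559 UMIs in neutrophils and 4647 and 4328 in B cell-like cells. After thinning to 1000 UMIs these shares were 70.7% and 67.3% against 5.42% and 3.52%. The Lcn2 ratio lay between 0.4997 and 0.553 in 12 of the 13 alternatives. In cells called female it turned to 1.21 (1.16 to 1.27), and there it was 0.876 (0.835 to 0.920) without the 6 cells holding Ngp, Ltf and Camp.

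Chil1, a chitinase-like lectin of specific granules, stood at 288 and 128 CPM, a ratio of 0.443 (0.423 to 0.464). It was found in 47.1% of normoglycemic and 26.7% of diabetic neutrophils, and in 21.5% and 10.0% after thinning, against 0.361% of 277 and 0% of 142 thinned B cell-like cells (the 0 allows up to 2.11%). Over the alternatives its ratio lay between 0.376 and 0.614, the highest in cells called female. Lcn2 and Chil1 were the pair most closely correlated from cell to cell among normoglycemic neutrophils (r = 0.40 over 5019 cells of 1 library, a description that depth shares in).

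Slpi, a secreted inhibitor of elastase and cathepsin G, went the other way. It stood at 3349 CPM in normoglycemic and 5908 CPM in diabetic neutrophils, a ratio of 1.76 (1.75 to 1.78), and had the most UMIs of the 10 in the latter. Its transcripts were detected in 85.1% and 92.2% of neutrophils and, thinned, in 64.9% and 80.5%, against 5.78% and 5.63% of thinned B cell-like cells. Its ratio was 1.77 in cells called male and 1.63 to 2.48 over the 13 alternatives, the highest in cells called female.

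Wfdc21, which encodes a small WAP-domain protein of the same family as Slpi, stood at 1382 and 1919 CPM, a ratio of 1.39 (1.37 to 1.41), short of 1.5-fold, but it was 3.42-fold (3.11 to 3.77) higher in diabetic cells called female. Lyz2, lysozyme M, stood at 1019 and 1309 CPM, a ratio of 1.28 (1.26 to 1.31), and in cells called female the ratio was 0.981 (0.9325 to 1.03), or 0.782 (0.742 to 0.825) without the 6 cells. The top 1% of neutrophils held 41.2% of normoglycemic and 35.8% of diabetic Lyz2 UMIs, more than for Lcn2 (8.51% and 13.8%). When the 330 normoglycemic and 356 diabetic neutrophils with 3 or more markers of another class were left out, the Lyz2 ratio was 1.73, and with a gate of 10% it was 1.54; reads of its close relative Lyz1 could be shared with it. At the gate itself, cells with 2% to 3% of S100a8 plus S100a9 had 2576 CPM of Lcn2 and 3117 of Lyz2 in the normoglycemic library, and cells with 3% to 4% had 3516 and 2831.

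Retnlg, a resistin-like gene of blood neutrophils, differed between the libraries: its median was 0 per 10000 UMIs in normoglycemic and 14.2 in diabetic neutrophils. Neutrophils were split into 3 levels by rank over both libraries, with 0 Retnlg UMIs as low and above 12.05 per 10000 UMIs as high, which gave 2744 low, 1510 middle and 765 high cells in the normoglycemic library and 1165, 1038 and 2464 in the diabetic library. Wfdc21 followed Retnlg in both. Its normoglycemic levels were 994, 1471 and 2278 CPM in low, middle and high cells and its diabetic levels 903, 1362 and 2512 CPM, 2.29-fold (2.23 to 2.35) and 2.78-fold (2.69 to 2.89) from low to high. Within a level the libraries were close, with diabetic over normoglycemic ratios of 0.908 (0.874 to 0.944) in low, 0.926 (0.899 to 0.953) in middle and 1.10 (1.08 to 1.13) in high cells, whereas over all neutrophils the ratio was 1.39. The diabetic library, with the higher overall Wfdc21 level, had 52.8% of its neutrophils in the high level against 15.2%.

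The other spread genes kept their direction at each level of Retnlg. Between the libraries, 4 of 8 tested members were higher and 2 lower in low cells (17.2% and 12.3% of 4502 genes), 4 of 10 higher and 2 lower in middle cells (21.5% and 9.85% of 4996) and 4 of 8 higher and 1 lower in high cells (10.4% and 11.3% of 4124). Ngp, Ltf and Camp in these counts moved with the 16 cells that hold all 3. Without those cells the diabetic over normoglycemic ratio in low, middle and high cells was 0.535, 0.248 and 1.02 for Ngp, 0.643, 0.227 and 0.461 for Ltf and 0.473, 1.835 and 3.49 for Camp. The Camp ratio of middle cells rests on 121 diabetic against 143 normoglycemic UMIs. The cell with Mpo and Elane held 107 of the 121. That of high cells rests on 131 diabetic against 15 normoglycemic UMIs, and 1 diabetic cell held 70 of the 131. The counts were then 1 of 8 higher and 5 lower in low cells (17.0% and 12.2% of 4529 genes), 4 of 10 and 4 in middle cells (21.8% and 9.85% of 4983) and 2 of 8 and 2 in high cells (10.3% and 11.3% of 4118). The higher members in middle cells included Mpo, Elane and Camp, which rested mainly on the cell with Mpo and Elane. Slpi was 1.63-fold (1.60 to 1.66), 1.81-fold (1.78 to 1.84) and 1.59-fold (1.56 to 1.62) higher in diabetic low, middle and high cells. Chil1 was at 0.381 (0.344 to 0.422), 0.416 (0.380 to 0.456) and 0.498 (0.461 to 0.538) times the normoglycemic level. Lcn2 was at 0.509, 0.506 and 0.717 times, and the smaller gap in high cells came with its fall across the normoglycemic levels, from 7834 over 6584 to 5452 CPM, against 3987, 3334 and 3906 CPM in the diabetic library. Lyz2 was highest in the middle level of both libraries (1272 and 1668 CPM), which also held the largest share of cells with 3 or more markers of another class, 151 of 1510 and 110 of 1038 cells; their part in the Lyz2 level was not tested.

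**Figure D4:**
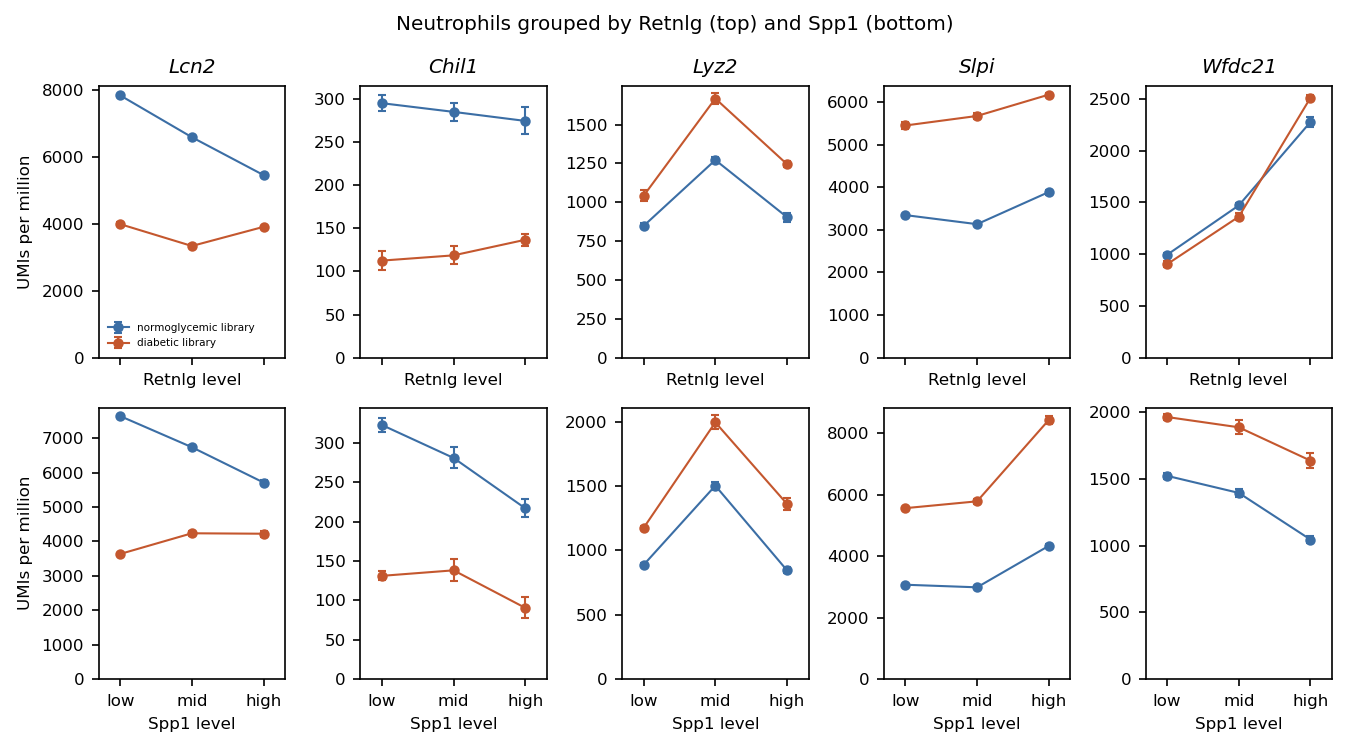
Level of Lcn2, Chil1, Lyz2, Slpi and Wfdc21 (CPM of the group; bars are 95% Poisson intervals) in neutrophils with low, middle and high Retnlg (top row) and Spp1 (bottom row). Wfdc21 climbs with Retnlg along nearly the same line in both libraries, and Slpi climbs from Spp1-low to Spp1-high cells in both.

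From Retnlg-low to Retnlg-high cells, 2 of 8 tested genes were at least 1.5-fold higher in each library, Ngp and Wfdc21, where 9.01% of 4240 genes were higher in the normoglycemic and 5.49% of 4370 in the diabetic library. Ltf and Camp were lower in the normoglycemic library (17.3% of genes lower) and 0 members were lower in the diabetic library (18.4%). The 16 cells with all 3 genes weigh on these values. Without them Ngp was 2.96-fold (2.58 to 3.41) and 5.68-fold (4.42 to 7.41) higher in Retnlg-high cells, and Ltf was at 0.560 (0.415 to 0.744) and 0.401 (0.278 to 0.581) times the level of Retnlg-low cells. Outside the 16 cells, Ngp and Ltf thus differed in opposite directions with Retnlg in both libraries. Camp was at 0.187 (0.103 to 0.315) in the normoglycemic library and at 1.38 (0.935 to 2.09) in the diabetic library. In the latter 1 cell held 70 of the 131 Camp UMIs of Retnlg-high cells, so the direction there rests on 1 cell.

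Spp1, osteopontin, marked 1016 normoglycemic and 445 diabetic neutrophils as high (at least 3 UMIs and 10 per 10000 UMIs), and 3071 and 3675 cells had none. Slpi was higher in Spp1-high cells of both libraries, at 4334 against 3070 CPM under normoglycemia (1.41-fold, 1.39 to 1.43) and 8431 against 5562 CPM under diabetes (1.52-fold, 1.49 to 1.54). Chil1 was lower in them, at 217 against 323 CPM (0.672, 0.632 to 0.714) and 90.5 against 131 CPM (0.690, 0.591 to 0.801). Wfdc21 was also lower, at 0.686 (0.668 to 0.706) and 0.834 (0.804 to 0.864) times. Within the low, middle and high Spp1 levels, diabetic Slpi was 1.81-fold (1.79 to 1.83), 1.94-fold (1.90 to 1.98) and 1.945-fold (1.91 to 1.98) the normoglycemic level, and Chil1 was at 0.406, 0.492 and 0.417 times. Between the libraries, 5 of 10 tested members were higher and 2 lower in low cells (13.3% and 13.3% of 4408 genes), 3 of 8 higher and 3 lower in middle cells (13.2% and 14.0% of 4861) and 6 of 8 higher and 1 lower in high cells (18.1% and 16.4% of 4499). Without the 16 cells, of which 1 per library was Spp1-high, the counts were 3 of 10 higher and 3 lower in low cells (13.4% and 13.4% of 4395), 3 of 8 and 3 in middle cells (13.1% and 14.1% of 4858) and 2 of 8 and 3 in high cells (17.3% and 16.3% of 4479). In those Spp1-high cells Ngp was at 1.97, Ltf at 0.279, Camp at 0.575, Lyz2 at 1.425 and Wfdc21 at 1.44 times the normoglycemic level. The higher members in Spp1-low cells included Mpo and Elane, which rested on 1 diabetic cell. Lcn2 differed in direction from Spp1-low to Spp1-high cells, at 0.747 (0.739 to 0.756) in the normoglycemic and 1.16 (1.14 to 1.19) in the diabetic library; that difference was not tested.

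By the 1.5-fold limit, 0 of 8 genes were higher and 3 lower (Ngp, Ltf and Camp) in Spp1-high normoglycemic cells, where 6.72% and 8.23% of 4243 genes were called. In Spp1-high diabetic cells 4 of 10 were higher (Ngp, Ltf, Camp and Slpi) and 2 lower (Mpo and Elane), where 9.11% and 9.78% of 4500 genes were called. The opposite directions of Ngp, Ltf and Camp rest on single cells: the diabetic cell with 1677 Ngp UMIs had 28 Spp1 UMIs and was Spp1-high, and both high normoglycemic cells had 0. Without the 16 cells the Ngp ratio was 1.19 (1.05 to 1.34) in the normoglycemic and 2.62 (2.27 to 3.02) in the diabetic library. Ltf was lower in the normoglycemic library, at 0.680 (0.543 to 0.845). In the diabetic library it was at 0.537 (0.251 to 1.02), on 10 against 128 UMIs, which is below the limit of 10 CPM and within counting error.

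Outside the neutrophil gate, cells were put into classes by at least 3 detected markers of 1 class, and each class name means cells like that type. Ngp, Camp, Chil1 and Wfdc21 were largely neutrophil transcripts: the gate held 99.2% of all Ngp UMIs in both libraries, 98.4% and 98.6% of Camp, 90.3% and 90.1% of Chil1 and 95.2% and 92.9% of Wfdc21. Lyz2 was the opposite, with 7.73% and 7.68% in the gate. S100a8 plus S100a9 made up 0.183% and 0.142% of UMIs of the other cells, of which 524 and 436 cells had shares of 1% to 3%; the source of these UMIs was not tested. Relative to S100a8 plus S100a9, 23 pairs of a gene and a named class in the normoglycemic and 33 in the diabetic library lay at least 2-fold above the neutrophil ratio, but 6 and 4 of these were in B cell-like cells, which are not known to make these proteins. Levels are therefore set against B cell-like cells of the same library below, a comparison chosen after the data were seen. Over the same named classes, B cell-like cells counting 0 by construction, the whole interval was at least 3-fold above that level in 4 and 10 pairs and at least 2-fold above it in 5 and 10. Cells without a class, which are not in these counts, gave another 3 and 4 pairs at 3-fold.

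Macrophage-like cells had the most Lyz2, with normoglycemic and diabetic levels of 10180 and 11890 CPM, 77.1 and 90.3 times the B cell-like level, and 1.17-fold (1.16 to 1.18) apart. Monocyte-like cells had 5953 and 6157 CPM and conventional dendritic cell-like cells 1037 and 923 CPM, close to the 1019 and 1309 CPM of neutrophils. Lyz2 is widely used as a myeloid marker, and in both libraries macrophage-like and monocyte-like cells had more of it than neutrophils. In macrophage-like cells 0 of 4 tested members were higher (2.46% of 7508 genes) and 1 was lower (3.54%), Lcn2 at 0.329 (0.297 to 0.365); at 115 and 37.7 CPM it was at 0.959 and 0.666 times the B cell-like level.

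Monocyte-like cells, 1099 and 1021, resembled neutrophils in Slpi. They held 5914 and 4577 CPM, 11.1 and 24.6 times the B cell-like level, and the diabetic level was 0.774 times the normoglycemic (0.766 to 0.783), opposite to the direction in neutrophils. Wfdc21 stood at 28.5 CPM in normoglycemic and 125.5 CPM in diabetic monocyte-like cells, 4.41-fold higher (3.93 to 4.96), and was the only 1 of 4 tested members past 1.5-fold, where 6.31% of 6690 genes were higher and 7.61% lower. It was detected in 9.74% and 23.5% of these cells, and in 2.19% and 7.31% after thinning, against 1.08% and 0% (0 of 142 cells, which allows a share of up to 2.11%) of thinned B cell-like cells. Lcn2 stood at 403 and 315 CPM, a ratio of 0.780 (0.748 to 0.814).

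Ltf in the diabetic library was mainly outside neutrophils, which held 20.9% of its UMIs there and 88.6% in the normoglycemic library. Secretory epithelial cell-like cells, 93 in the diabetic library, had 1727 Ltf UMIs (2266 CPM), in 16 cells, of which the top 5 held 97.8%. Keratin epithelial cell-like cells had 514 UMIs in 5 of 81 cells (285 CPM). Cells without a class had 2216 UMIs (121 CPM) in 44 cells, the top 5 with 82.6%, against 71 UMIs (3.38 CPM) in the normoglycemic library. Lactoferrin is a known product of glandular epithelium, but the normoglycemic library had only 5 cells of each epithelial class, so no level can be compared between the libraries. Secretory epithelial cell-like cells also had Lcn2 at 395 CPM, 6.98 times the B cell-like level.

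Slpi at 1365 CPM in the 248 fibroblast-like cells of the diabetic library rested on few cells as well: the top 5 held 84.5% of its 5213 UMIs. In B cell-like cells of the normoglycemic library 1 cell held 442 of 883 Slpi UMIs, so the B cell-like level of this gene is itself set by single cells. Chil1 was at most 9.62 CPM in any named class outside the gate, against 7.87 CPM in normoglycemic B cell-like cells. Mpo and Elane had at most 8 UMIs in any class outside the gate.

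**Figure D5:**
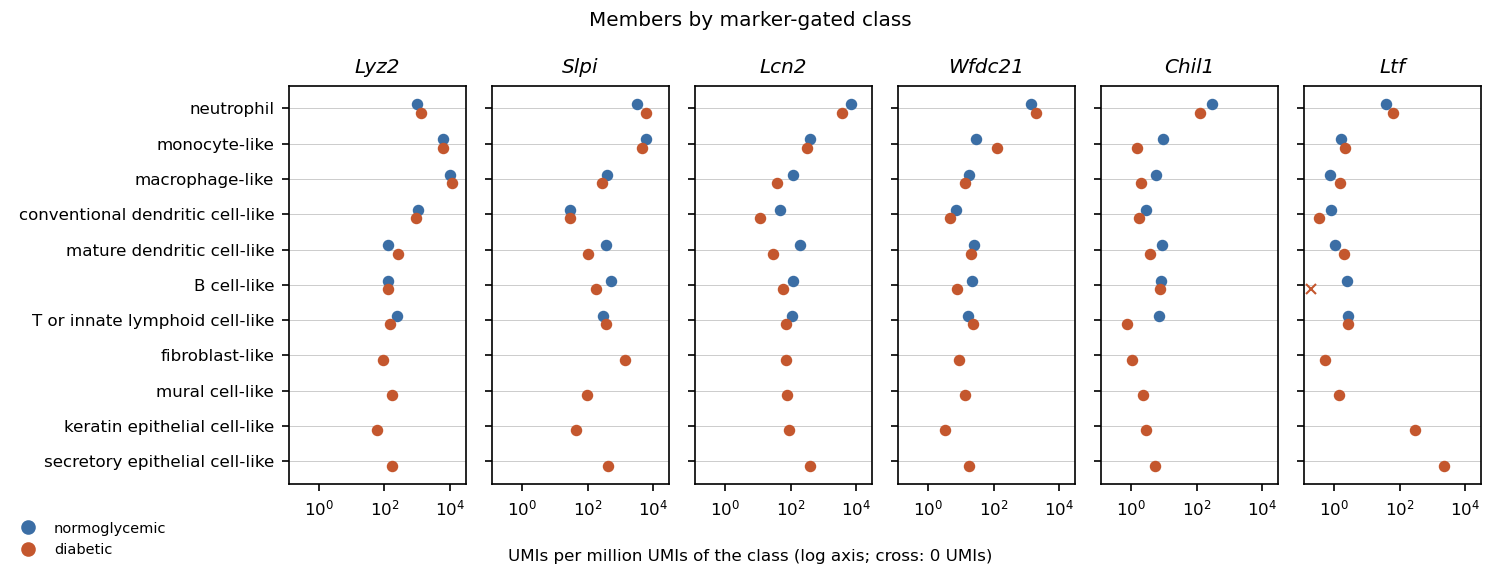
Level of 6 genes (CPM of the class, log axis) in neutrophils and in marker-gated classes with at least 50 cells in the library; a cross marks 0 UMIs. Lyz2 is highest in macrophage-like cells, Slpi is similar in neutrophils and monocyte-like cells, and Ltf is highest in secretory epithelial cell-like cells of the diabetic library (2266 CPM).

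Other granule genes were read from lists of 40 genes, of which 8 were proliferation genes. Of the 27 granule, inhibitor and regulator genes tested among 32, 12 were higher and 3 lower in diabetic neutrophils, beside 11.8% and 14.1% of all genes, with a median log2 ratio of 0.52. The counts were also 12 and 3 without the 16 cells. Among 8 specific granule genes 4 were higher and 0 lower: Chil3, a chitinase-like protein (38.0 and 187 CPM, 4.93-fold, 4.595 to 5.29), Mmp8, neutrophil collagenase (57.4 and 174 CPM, 3.04-fold, 2.86 to 3.23), Cd177, a neutrophil surface protein (2.14-fold, 1.88 to 2.43), and Pglyrp1, a peptidoglycan-binding protein (1.90-fold, 1.84 to 1.97). Outside the 16 cells Chil3 was still 6.06-fold (5.54 to 6.63) and Mmp8 2.88-fold (2.71 to 3.07) higher.

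Of the 4 azurophil genes tested, Prtn3 (15 and 877 UMIs) and Ctsg (0 and 527 UMIs) were higher through the single cell described above, which held 835 and 512 of the diabetic UMIs. Cd63, a granule membrane protein, was lower, at 229 and 145 CPM (0.630, 0.603 to 0.660). Of the 8 gelatinase granule or secretory vesicle genes tested, Mmp9, gelatinase B (130 and 249.3 CPM, 1.92-fold, 1.84 to 2.01), and Anxa1, annexin A1 (1.73-fold, 1.69 to 1.78), were higher and none was lower. Of 4 protease inhibitors 3 were higher, Serpinb1a (2.13-fold), Stfa2 (2.54-fold) and Stfa2l1 (1.95-fold), the last 2 members of a gene cluster whose copies can share reads. The cysteine protease inhibitor Cstb was lower, at 1445 and 409 CPM (0.283, 0.276 to 0.290). Among the regulators, Cebpd was 2.03-fold higher and Cebpa was at 0.422 times, and Cebpe, which drives specific granule genes, was below the limit with 86 and 105 UMIs. The 1 proliferation gene tested, Stmn1, was not past 1.5-fold.

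The genes most like Ngp, Ltf and Camp from cell to cell, by the lower of the 2 libraries' Pearson correlations over 8293 genes, were Syne1 (0.17 and 0.19 in the normoglycemic and diabetic library), Chil3 (0.14 and 0.18), Dstn, Capg, Ckap4, S100a8, Lgals3 and Cyba. All values are low, they were taken over 5019 and 4667 cells that differ in depth, and they are given as a description only.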

How the data were processed

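Chromium 3′ v3 single-cell libraries of 1 normoglycemic and 1 diabetic pool were deposited as raw UMI counts per gene and cell, which the authors made with Cell Ranger (4.0.0 per the file headers, 6.0.2 with mm10 per the submitters' processing notes). The deposited matrices held 11280 and 10496 barcodes with 89339733 and 78220582 UMIs (medians 5161 and 4542.5), none under 500 UMIs. Cells with at least 500 UMIs, 200 genes and at most 15% mitochondrial UMIs were kept (332 and 236 removed); 32 barcodes were shared by both libraries, and no doublet caller was run. UMIs were summed per class and scaled to CPM. Ratios carry exact conditional binomial intervals, levels Poisson and shares Clopper-Pearson intervals (95%), counting error only; log2 used a pseudocount of 0.5. With 1 library a group no test was possible and no p-value was computed. A class needed 3 of 8 markers and a lead of 2. The genes named are the 10 members, list genes of at least 10 CPM, and the 8 most correlated genes. Members and lists were chosen with earlier results of these data known. The ratio code was checked on simulated data. Neutrophil markers such as Csf3r (675 CPM in normoglycemic neutrophils, 55.1 in other cells) were higher in the gate. Alternatives changed the gate, filters, scaling, fold, levels and cell sets. Python 3.11.15, numpy 2.4.6, scipy 1.17.1, pandas 2.3.3 and matplotlib 3.10.9 were used. The 4 antibody capture features were kept apart.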

Additional observations from a re-analysis of the deposited data

Results flagged for a closer look

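Ngp and Camp differed in opposite directions with Spp1 in the 2 libraries. Ngp in Spp1-high cells was at 0.302 times the level of Spp1-low cells in the normoglycemic library and at 2.43 times in the diabetic library. Camp was at 0.104 and 2.28 times. The difference between the libraries was not tested, since each is 1 pool. Without the cells holding Ngp, Ltf and Camp, Ngp was at 1.19 and 2.62 times, so its opposite directions were not seen there. Camp was at 0.953 (0.735 to 1.23) and 0.638 (0.364 to 1.05) times, both within counting error. The diabetic Camp ratio compares 17 UMIs in Spp1-high with 183 in Spp1-low cells. The cell with Mpo and Elane held 107 of the 183, so the direction of that ratio rests on 1 cell.

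The matrices also held 4 antibody capture features, named C1 to C4 in the feature tables, which no comparison above uses. They had 700188 UMIs in the normoglycemic and 250351 UMIs in the diabetic library. What each feature marked is not given in the sources used here.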

How the results depend on the processing

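Of 184 recomputed counts of genes or cells, 138 stayed within 1.5 times of the reported count. For the 10 genes in diabetic against normoglycemic neutrophils, the 6 higher became 3 without the deepest 5% of neutrophils, 3 without the cells holding Ngp, Ltf and Camp, 3 after thinning each cell to 1000 UMIs and 1 in cells called male. The 2 lower became 5 in cells called male, 1 in cells called female (chosen after seeing the data) and 1 at 2-fold. Chil1, Slpi and Wfdc21 kept their direction under all 13 alternatives; Lcn2 and Lyz2 did under 12, and in cells called female the Lcn2 ratio of 0.542 turned to 1.21 and the Lyz2 ratio of 1.28 to 0.981. The Mpo ratio of 69.2 turned to 0.978 with a gate of 10% and to 0 in cells called male, both with Mpo below the limit of 10 CPM. In cells called male Mpo had 4 normoglycemic and 0 diabetic UMIs. In those cells the Ngp ratio of 2.83 turned to 0.602, a direction that rests on 1 normoglycemic cell, and the Camp ratio of 3.28 to 0.147. The Ltf ratio of 1.68 turned to 0.682 without the deepest 5%, 0.353 without the cells holding all 3 genes, 0.297 in cells called male and 0.868 after thinning. The other granule genes stayed within 8 to 13 higher and 2 to 3 lower.

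For Retnlg in the normoglycemic library, the 2 higher became 1 with 2 levels in place of 3. The 2 lower became 1 with a gate of 1%, in cells called male and at 2-fold, and 0 with levels set within each library or with 2 levels. In the diabetic library, the 2 higher became 5 with a gate of 10% or median of ratios scaling, 4 with 2 levels, and 1 without cells holding 3 markers of another class, without the deepest 5% and at 2-fold. The 0 lower became 3 without the deepest 5%, 2 with levels set within each library or with 2 levels, and 1 without the cells holding all 3 genes or in cells called male.

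For Spp1 in the normoglycemic library, the 0 higher became 1 with a gate of 1%, in cells called male and with a limit of 50 per 10000 UMIs. The 3 lower became 0 without the deepest 5% or without the cells holding all 3 genes, and 5 with the limit of 50. In the diabetic library, the 4 higher became 0 without the deepest 5%, 2 without the cells holding all 3 genes and at 2-fold, and 1 in cells called male and with the limit of 50. The 2 lower became 0 with a gate of 10%, without cells holding 3 markers of another class and in cells called male, and 6 with the limit of 50.

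Thinned cells with Ngp, Ltf and Camp, 2 in the normoglycemic and 7 in the diabetic library, became 8 in the normoglycemic library without thinning, and 1 and 0 in cells called male. The 23 and 33 pairs of a gene and a named class above the S100a8 plus S100a9 ratio became 4 and 10 at 3-fold, and 5 and 10 at 2-fold, above B cell-like cells. Where fewer cells were used (gates, cell sets, levels), that construction changed which of the few rich cells were summed; for other settings the cause was not tested. No paired analysis was possible because each group has 1 library. Depth limits the detection of Mpo, Elane, Ngp, Ltf and Camp in single cells, and few rich cells carry their sums; which of these limits the precision more was not tested.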
